A study of Mus musculus with 2 samples.

Results

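The histone genes of a 2-colour expression array were followed in erythroid progenitors that over-expressed ESlncRNA, a long non-coding RNA of erythroid cells also known as lincRNA-EPS. Members were all non-control probes whose gene name on the array starts with Hist1h, Hist2h, Hist3h, Hist4h, H2af, H3f3 or H1f. The rule used names only and no measured value. It found 77 of 55681 probes, under 64 gene names. Of these, 52 probes (48 names) belong to the clustered, mostly replication-dependent genes and 25 probes (16 names) to the variant genes outside the clusters. Tests covered the probes that stood well above background on each array in either channel, which left 72 of the 77 histone probes (49 clustered, 23 variant) and 26802 probes in all. The 5 probes left out are those of Hist1h1d, Hist1h2al, Hist3h2bb-ps, H1fnt and H2afb2-ps. Gene names are those of the array's design, and positions are on mm9.

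The study compared lineage-negative erythroid progenitors of E14.5 fetal livers from C57BL/6 mice. The cells received either an ESlncRNA construct or the vector by transduction, and those positive for GFP were sorted by flow cytometry, so the controls carry a transduced construct too. Each of 2 arrays, called replicate 1 and replicate 2 by the labels, held ESlncRNA RNA in the red channel (Cy5) and vector RNA in the green channel (Cy3). The dyes were not swapped, so dye and treatment cannot be told apart. Whether the arrays hold RNA of separate cultures is not stated in the labels, so every p-value below measures only the spread between these arrays, which may be technical. The median spot signal was 35.9 and 39.5 in the vector channel and 67.8 and 76.3 in the ESlncRNA channel, and no spot was saturated. The interval on chromosome 4 that was taken for ESlncRNA rose, with 2.22 and 2.19 on the log2 scale at its brightest probe, at least 4.62-fold because the vector channel there was not well above background. Of its 10 probes 8 rose, 1 was not called (0.12 and -0.02, limma adjusted p = 0.484) and 1 was too dim to test.

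Histones package DNA into nucleosomes, each a core of H2A, H2B, H3 and H4 closed by a linker H1. Most histone protein is made in S phase from clustered genes, whose transcripts normally end in a conserved stem-loop and carry no poly(A) tail. Variant histones come from single genes elsewhere, mostly with polyadenylated transcripts made through the cell cycle. The labelling used here starts from an oligo-dT primer, per the labels' protocols. It therefore reads the stem-loop transcripts only where some carry a tail or are primed from an internal run of A. In maturing erythroid cells the nucleus condenses and is expelled, and dividing precursors make much histone protein before that.

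A few probe sequences matter for reading the values. Probes of 60 bases that end at the stop codon of different clustered H2A genes share much of their sequence. Each can thus take up the transcripts of several genes. The 6 such H2A probes that were tested are given 5′ to 3′ with the stop codon in capitals.
Hist1h2af: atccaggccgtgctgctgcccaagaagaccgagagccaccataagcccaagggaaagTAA
Hist1h2ah: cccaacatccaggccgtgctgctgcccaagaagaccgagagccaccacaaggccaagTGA
Hist1h2ak: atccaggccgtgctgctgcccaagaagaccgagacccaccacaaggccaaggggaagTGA
Hist1h2an: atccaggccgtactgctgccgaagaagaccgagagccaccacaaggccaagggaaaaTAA
Hist2h2aa2: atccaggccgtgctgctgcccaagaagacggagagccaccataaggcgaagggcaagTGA
Hist2h2ac: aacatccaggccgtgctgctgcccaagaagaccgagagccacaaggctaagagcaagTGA
With a probe of Hist1h2ag and the following one of H2afj they form a group of 8 alike probes.
H2afj: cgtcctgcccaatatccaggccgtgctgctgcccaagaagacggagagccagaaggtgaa
Alike here means that an overlap of at least 40 bases, with no gaps, matches at 85% of its bases or more. The group was joined through chains of alike pairs, so not every pair in it is alike. Hist2h2ac was alike only to H2afj, and H2afj only to Hist2h2ac and Hist2h2aa2. The 17 alike pairs of the group match at 85.1% to 95.8%. A second group holds 4 H4 probes (Hist1h4c, Hist1h4d, Hist1h4j and 1 of Hist1h4k), whose 6 pairs match at 85.4% to 95.8%.

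Other probes lie around the usual end of the transcript. Both strands of all 55681 probes were searched for GGCTCT, any 4 bases and AGAGCC, the usual letters of the histone stem-loop. They were found in 5 probes (0.00898%), and all 5 belong to the clustered histone genes. The letters are in capitals within 30 bases of each probe.
Hist1h3a: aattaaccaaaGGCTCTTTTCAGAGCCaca
Hist1h3g: cactttaaaGGCTCTTCTTAGAGCCaccca
Hist1h3i: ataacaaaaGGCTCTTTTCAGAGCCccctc
Hist2h2aa1: taaaaaGGCTCTTTTCAGAGCCacccactg
Hist2h2bb: acccaaaaGGCTCTTTTCAGAGCCacttta
The poly(A) signal letters AATAAA or ATTAAA stood on the sense strand of 9 of the 77 histone probes (11.7%) and of 13.7% of all probes.

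Across the histone genes there was no common direction. Values are log2 ratios of ESlncRNA over vector after loess normalization, and a probe was called at an adjusted p under 0.05 (limma, Benjamini-Hochberg over all probes tested). Of the 49 clustered probes 20 rose (40.8%), 17 fell (34.7%) and 12 were not called, with a median of 0.04. Of the 23 variant probes 6 rose (26.1%), 12 fell (52.2%) and 5 were not called, with a median of -0.18. Among all probes tested 25.8% rose and 35.8% fell, with a median of -0.03. Clustered probes thus rose in a larger share than all probes, and variant probes fell in a larger share; the difference between the classes was not tested. With 1 probe per alike group, a choice made after the data were seen, 12 of 40 clustered probes rose and 17 fell. That share of risers, 30%, is near that of all probes. A change of at least 2-fold down on both arrays was seen for 6 of the 72 histone probes (8.33%) against 7.11% of all probes. They are the 3 probes of H2afy and 1 each of Hist2h2aa1, Hist1h2bg and Hist1h2ac. A change of at least 2-fold up on both arrays was seen for 0 of the 72, against 0.534% of all probes.

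**Figure D1:**
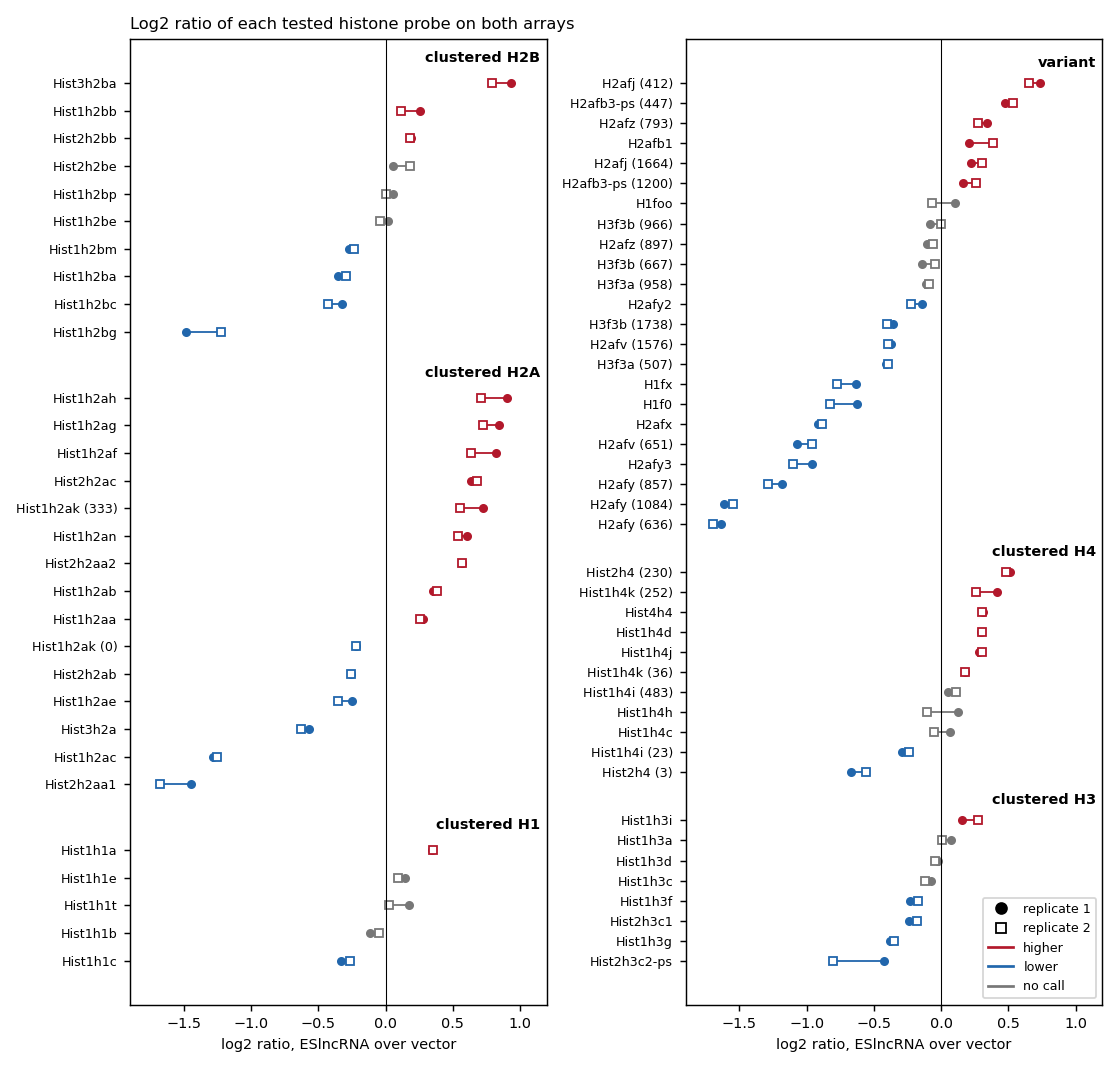
Log2 ratio of ESlncRNA over vector for each of the 72 tested histone probes, by class. Filled circles are replicate 1 and open squares replicate 2; colour gives the call. Where a gene has several probes, the number in brackets is the start of the probe in its listed transcript, in bases. H2afy, Hist2h2aa1, Hist1h2bg and Hist1h2ac lie farthest to the left, and the alike H2A probes lie at 0.54 to 0.90.

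The direction of many members depends on how the arrays are normalized. Loess fits the trend of the ratio with intensity within each array and subtracts it. Median centring shifts all ratios of an array by the same amount and leaves that trend. When each array was centred on its median instead, 37 clustered probes rose and 5 fell (median 0.48), and 12 variant probes rose and 8 fell (median 0.27). Then 61.3% of all probes rose and 17.7% fell, around a median of 0.31. Of the 500 brightest probes 500 rose with median centring, around a median of 1.37. The ratios with median centring given below stand beside these medians of 0.31 and 1.37, not beside 0. With the scanner software's processed signals, 21 clustered probes rose and 11 fell (median 0.24), and 4 variant probes rose and 10 fell (median -0.07). All probes then gave 34.6% up and 22.5% down, around 0.13. By class, median centring gave 5 up and 0 down of 5 H1 probes, 10 and 2 of 15 H2A, 7 and 1 of 10 H2B, 6 and 1 of 8 H3 and 9 and 1 of 11 H4. The variant median thus lay below that of all probes under each of these normalizations, and the clustered median above it. These are descriptions of medians, with no test. With 1 probe per alike group the clustered median with the processed signals was 0.09, below that of all probes.

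**Figure D2:**
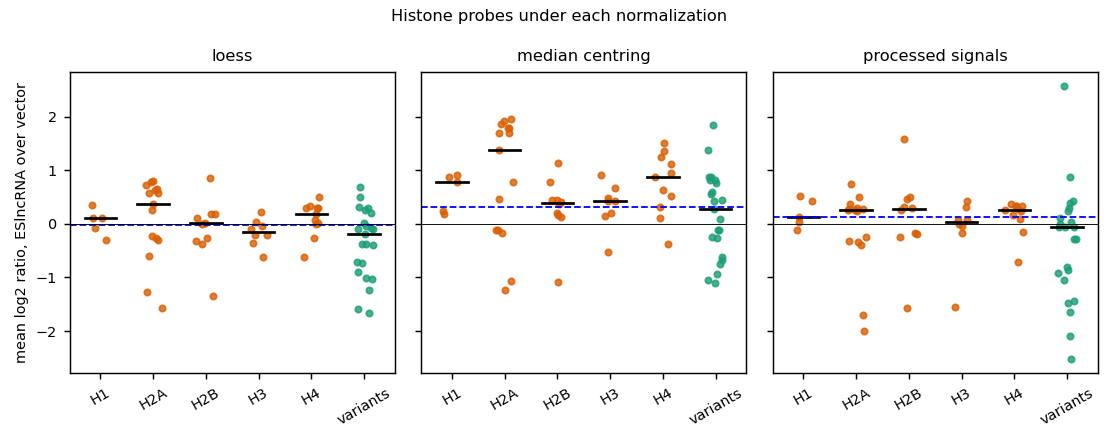
Mean log2 ratio (n = 2 arrays) of each tested histone probe, by class, under loess, median centring and the processed signals. Black bars are class medians and the dashed line is the median of all tested probes (-0.03, 0.31 and 0.13). H2A splits into a high and a low set in each panel, and the variant median lies below the dashed line in each panel.

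Among the variants, H2afy had the largest decrease after loess. It encodes macroH2A1, an H2A variant with a large additional domain that is known from silenced chromatin such as the inactive X chromosome. Its 3 probes lie on the minus strand of chromosome 13 and share no sequence group.
H2afy, chr13:56205682-56205741: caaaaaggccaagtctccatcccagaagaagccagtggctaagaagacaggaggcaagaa
H2afy, chr13:56189613-56189672: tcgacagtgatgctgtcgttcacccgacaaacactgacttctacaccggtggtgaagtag
H2afy, chr13:56184528-56184587: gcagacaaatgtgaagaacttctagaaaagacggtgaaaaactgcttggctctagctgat

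At the first of these probes the normalised log2 intensity was 12.48 and 12.56 in vector RNA and 10.84 and 10.86 in ESlncRNA RNA. The ratio was -1.67 ± 0.043 (SD, n = 2 arrays; limma adjusted p = 7.60e-07). At the third probe the intensity was 13.57 and 13.45 in vector RNA and 11.95 and 11.90 in ESlncRNA RNA, a ratio of -1.58 ± 0.047 (limma adjusted p = 9.77e-07). Both vector values lay above both ESlncRNA values at each of these probes, and how many of all probes do the same was not counted. The second probe was dimmer, with 7.68 and 7.88 against 6.50 and 6.59 and a ratio of -1.24 ± 0.077 (limma adjusted p = 3.93e-06). All 3 probes stayed lower with median centring (-1.10, -1.05 and -0.93 in the order of the sequences) and with the processed signals (-1.64, -2.08 and -1.44).

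H2afy2, which encodes the related macroH2A2, had 10.02 and 10.08 in vector RNA and 9.88 and 9.86 in ESlncRNA RNA. It fell by 0.18 (SD 0.054, n = 2 arrays; limma adjusted p = 0.0185) after loess, while median centring gave 0.27 and the processed signals -0.07, so its direction is not settled. The probe named H2afy3 was lower, with 8.39 and 8.59 against 7.43 and 7.48 and a ratio of -1.03 ± 0.10 (limma adjusted p = 1.20e-05), and it gave -0.75 with median centring.

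H2afx encodes the H2A form that is phosphorylated beside DNA breaks. Its probe on chromosome 9 had 14.63 and 14.70 in vector RNA and 13.71 and 13.81 in ESlncRNA RNA. It fell by 0.90 (SD 0.023, n = 2 arrays; limma adjusted p = 1.14e-05). The groups did not overlap on this scale, but how many of all probes do the same was not counted. With median centring the H2afx ratio was -0.11 and was not called.

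The genes of H2A.Z, a variant found at promoters, went separate ways. H2afv fell at its bright probe (651 bases into the listed transcript), with 14.77 and 14.40 in vector RNA against 13.70 and 13.44 in ESlncRNA RNA and a ratio of -1.02 ± 0.078 (limma adjusted p = 9.96e-06). Its second probe, farther along at 1576, fell by 0.38 (SD 0.017; limma adjusted p = 0.000641). Median centring kept both below 0 (-0.24 and -0.27). H2afz did not fall: its probe at 793 had 16.85 and 16.92 against 17.20 and 17.19, a ratio of 0.31 ± 0.049 (limma adjusted p = 0.00202). The probe at 897, on the same chromosome 3 locus, gave -0.10 and -0.06 and was not called (limma adjusted p = 0.182). With the processed signals the H2afz ratios were 0.03 at 793 and -0.07 at 897. With median centring the probe at 793 gave 1.38, where the 500 brightest probes had a median of 1.37. It was thus above 0 under each of these normalizations, though barely with the processed signals. The probe at 897 changed sign with median centring.

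H3f3a and H3f3b encode the same protein, H3.3, which is placed into chromatin outside replication. Of their 5 probes 2 fell and 3 were not called. H3f3a fell at the probe at 507, with 14.81 and 14.92 against 14.40 and 14.52 (ratio -0.40 ± 0.0091, limma adjusted p = 0.000504), while its brighter probe at 958 gave -0.11 and -0.09 (limma adjusted p = 0.113). H3f3b fell at its dimmest probe, at 1738 (-0.38 ± 0.031, limma adjusted p = 0.000697), and was not called at 667 (-0.14 and -0.04, limma adjusted p = 0.160) or 966 (-0.08 and 0.00, limma adjusted p = 0.503). Under median centring all but the dimmest of these 5 were above 0, between 0.43 and 0.81.

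The replacement linker histones were near background. H1f0, the linker form that accumulates in non-dividing cells, had 6.88 and 6.86 in vector RNA and 6.25 and 6.04 in ESlncRNA RNA. The ESlncRNA channel was not well above background on either array, so the difference is given as at least 1.58-fold lower (limma adjusted p = 0.000113). H1fx, another linker variant, had 7.03 and 6.98 against 6.39 and 6.21 and fell by 0.70 (SD 0.098; limma adjusted p = 7.28e-05). The 2 linker genes kept their sign with median centring (-0.67 and -0.61).

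Other variant probes rose. H2afj, which encodes an H2A close in sequence to the clustered proteins, rose by 0.70 (SD 0.057; limma adjusted p = 4.89e-05) at the coding probe shown above. That probe is one of the 8 alike ones. Its probe at 1664, which is like no other member, had 12.05 and 11.97 against 12.27 and 12.28, a ratio of 0.26 ± 0.057 (limma adjusted p = 0.00436). With the processed signals these were 0.29 and 0.43.

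The germline histones are made in testis or oocytes in the adult. Of 6 listed genes found on the array 5 were tested, 2 rose, 1 fell and 2 were not called, beside 26.3% of genes up and 36.8% down when each gene on the array stood for its brightest probe. Hist1h2ba, a testis H2B, fell, with 13.34 and 13.25 against 12.99 and 12.96 (ratio -0.32 ± 0.044, limma adjusted p = 0.00162). Hist1h2aa, its H2A neighbour, rose from 7.04 and 7.07 to 7.32 and 7.33 (ratio 0.27 ± 0.017, limma adjusted p = 0.00335). H2afb1 rose by 0.30 (SD 0.13; limma adjusted p = 0.00516), while Hist1h1t (0.18 and 0.02, limma adjusted p = 0.163) and H1foo (0.10 and -0.07, limma adjusted p = 0.798) were not called. With median centring 4 of the 5 were higher and 0 lower. Hist1h2ba gave 0.37 with median centring. Of 2 probes named H2afb3-ps, on chromosomes X and 17, the former was at least 1.42-fold higher (vector channel not well above background; limma adjusted p = 0.000201) and the latter gave 0.21 ± 0.070 (limma adjusted p = 0.0116).

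**Figure D3:**
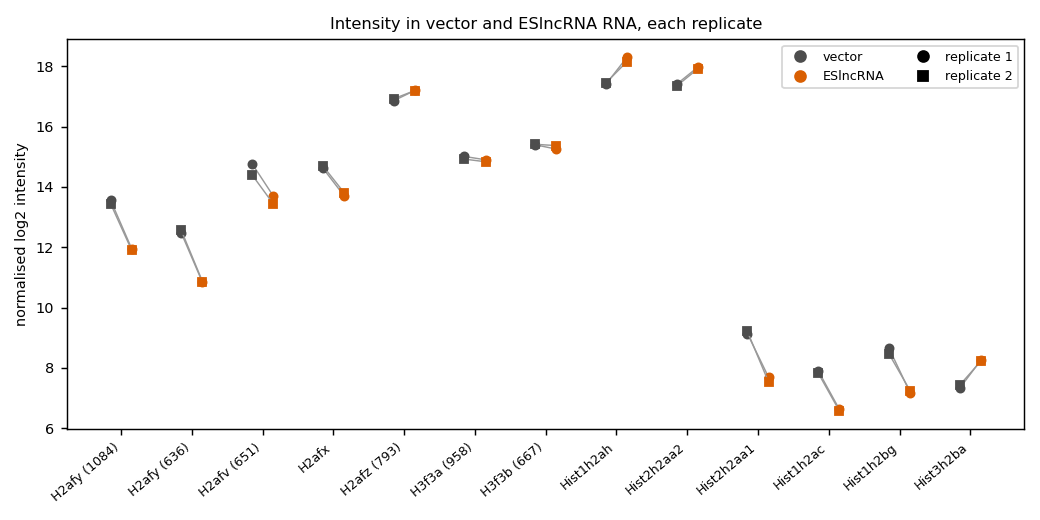
Normalised log2 intensity in vector RNA (grey) and ESlncRNA RNA (orange) for 13 histone probes, with replicate 1 as circles, replicate 2 as squares and a line joining the channels of an array. Levels may be compared within a probe but not between probes. Vector lies above ESlncRNA for H2afy, H2afv, H2afx, Hist2h2aa1, Hist1h2ac and Hist1h2bg, and below it for H2afz at 793, Hist1h2ah, Hist2h2aa2 and Hist3h2ba.

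Of the clustered genes, the linker H1 set had 5 tested probes, of which 1 rose, 1 fell and 3 were not called. Over all probes 25.8% rose and 35.8% fell, and no class was tested against these shares. Hist1h1a, which encodes H1.1, had 11.42 and 11.39 in vector RNA and 11.77 and 11.75 in ESlncRNA RNA. It rose by 0.35 (SD 0.0061, n = 2 arrays; limma adjusted p = 0.000938). Hist1h1c, which encodes H1.2, was lower after loess, with 11.39 and 11.46 against 11.05 and 11.20 and a ratio of -0.30 ± 0.050 (limma adjusted p = 0.00240), but gave 0.25 with median centring. Hist1h1e gave 0.14 and 0.09 (limma adjusted p = 0.0748) and Hist1h1b, the H1.5 gene, -0.11 and -0.05 (limma adjusted p = 0.207).

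H2A was the class that split most clearly: all 15 probes were called, 9 up and 6 down, beside 25.8% of all probes up and 35.8% down. The 6 stop-codon probes shown above, with those of Hist1h2ag and H2afj, all rose, between 0.57 and 0.81. Hist1h2ah was the highest, with 17.40 and 17.45 in vector RNA and 18.30 and 18.16 in ESlncRNA RNA (ratio 0.81 ± 0.14, limma adjusted p = 6.34e-05). Hist1h2ag rose by 0.79 (SD 0.084; limma adjusted p = 3.65e-05) and Hist2h2ac by 0.66 (SD 0.030; limma adjusted p = 5.36e-05). Since these probes share sequence, they are not separate measurements of 8 genes. They are also among the brightest on the array: of the 500 brightest probes 358 rose and 12 fell, around a median of 0.29. The 8 alike H2A probes had a median of 0.68 after loess, 1.82 with median centring, where the 500 brightest had 1.37, and 0.28 with the processed signals, where these had 0.04. Whether brightness plays a part in their ratio was not tested.

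**Figure D4:**
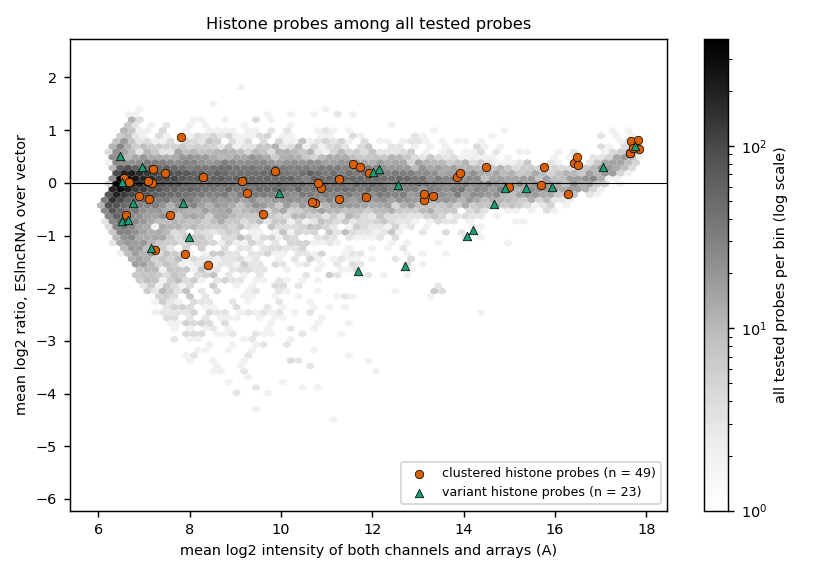
Mean log2 ratio against mean log2 intensity over both channels and arrays, for all 26802 tested probes (grey bins, darker for more probes on a log scale) with the 49 clustered (orange circles) and 23 variant (green triangles) histone probes. The alike H2A probes sit at the bright end above 17, where most probes lie above 0, and 2 of the 3 H2afy probes lie below most probes of their intensity, between 11 and 13.

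The other end of the H2A class was low. Hist2h2aa1 had 9.14 and 9.21 in vector RNA and 7.69 and 7.53 in ESlncRNA RNA, a ratio of -1.56 ± 0.16 (limma adjusted p = 3.90e-06). Its probe, chr3:96049949-96050008, is the one with the stem-loop shown above. On the mm9 map it lies 52 bases past the stop-codon probe named Hist2h2aa2, chr3:96049837-96049896, on the same strand. That upstream probe had 17.40 and 17.34 against 17.97 and 17.91 and rose by 0.57 (SD 0.0037; limma adjusted p = 9.88e-05). At 1 locus the coding probe was thus higher in ESlncRNA RNA, and the probe that lies mostly past the stem-loop letters was lower. The coding probe is open to transcripts of other H2A genes. The signs were the same with median centring (1.70 and -1.24) and with the processed signals (0.27 and -1.70).

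Hist1h2ac was the next lowest, at a probe 2426 bases into its listed transcript, with 7.91 and 7.84 against 6.63 and 6.58 and a ratio of -1.27 ± 0.016 (limma adjusted p = 2.24e-06). Hist3h2a, in the small cluster on chromosome 11, fell from 9.89 and 9.90 to 9.32 and 9.27 (ratio -0.60 ± 0.042, limma adjusted p = 9.14e-05). Hist1h2ae and Hist2h2ab fell by 0.30 and 0.26. Hist1h2ak had a second probe at the start of its transcript, like no other member, with 16.41 and 16.39 against 16.19 and 16.18. It fell by 0.22 (SD 0.0045; limma adjusted p = 0.00746), while the stop-codon probe of the same gene rose by 0.64 (SD 0.12; limma adjusted p = 0.000154). Median centring put both above 0 (0.78 and 1.79).

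Of 10 H2B probes 3 rose, 4 fell and 3 were not called, beside 25.8% of all probes up and 35.8% down. Hist3h2ba, from the chromosome 11 cluster, had 7.33 and 7.43 in vector RNA and 8.26 and 8.23 in ESlncRNA RNA. Its rise of 0.87 (SD 0.10; limma adjusted p = 2.83e-05) was the highest among the 72 histone probes after loess. Hist1h2bg fell from 8.66 and 8.47 to 7.18 and 7.25 (ratio -1.35 ± 0.18, limma adjusted p = 1.01e-05). Hist3h2ba and Hist3h2a lie in the same cluster and had opposite signs under each of the 3 normalizations, Hist3h2a at -0.17, not called, with median centring. Hist1h2bc (-0.38 ± 0.072, limma adjusted p = 0.000978) and Hist1h2bm (-0.25 ± 0.029, limma adjusted p = 0.00418) fell after loess and gave 0.13 and 0.45 with median centring. Hist2h2bb and Hist1h2bb rose by 0.19 each.

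Of 8 H3 probes 1 rose, 4 fell and 3 were not called, beside 25.8% of all probes up and 35.8% down. Hist1h3g fell from 10.91 and 10.81 to 10.53 and 10.46 (ratio -0.36 ± 0.020, limma adjusted p = 0.000817), and Hist1h3i rose from 9.81 and 9.71 to 9.97 and 9.99 (ratio 0.22 ± 0.084, limma adjusted p = 0.0122). Hist2h3c2-ps, a pseudogene, was at least 1.53-fold lower, with the ESlncRNA channel not well above background (limma adjusted p = 0.00136). Hist1h3f fell by 0.20 (SD 0.041; limma adjusted p = 0.0119) and Hist2h3c1 by 0.21 (SD 0.041; limma adjusted p = 0.0102). Among these, only Hist2h3c2-ps was below 0 with median centring (-0.53); Hist1h3g gave 0.14, Hist1h3f 0.20 and Hist2h3c1 0.48.

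Of 11 H4 probes 6 rose, 2 fell and 3 were not called, beside 25.8% of all probes up and 35.8% down. All H4 genes encode the same protein, and the differences lie in the bases of their transcripts. Hist2h4 had the highest and the lowest probe of the class. At 230 bases into the listed transcript it rose from 16.24 and 16.24 to 16.75 and 16.73 (ratio 0.50 ± 0.018, limma adjusted p = 0.000194). At 3 bases it fell from 7.98 and 7.79 to 7.31 and 7.23 (ratio -0.61 ± 0.080, limma adjusted p = 0.000113). Both signs held with median centring (1.51 and -0.37) and with the processed signals (0.33 and -0.71). Hist1h4d rose by 0.30 (SD 0.0075; limma adjusted p = 0.00184), Hist1h4j by 0.29 (SD 0.016; limma adjusted p = 0.00213) and Hist4h4 by 0.31. Hist1h4i was not called at 483 (0.05 and 0.11) and fell by 0.26 at 23 (SD 0.036; limma adjusted p = 0.00368). Of the 11 histone genes with several tested probes, Hist1h2ak and Hist2h4 were the 2 whose probes were called in opposite directions.

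By place, 14 of the 36 clustered probes on chromosome 13 rose and 11 fell, and 4 of the 10 on chromosome 3 rose and 5 fell. The medians were 0.03 and -0.04, beside 25.8% of all probes up, 35.8% down and a median of -0.03. With median centring chromosome 13 had 29 up and 2 down (median 0.49) and chromosome 3 had 6 up and 3 down (median 0.46), beside 61.3% and 17.7% of all probes and their median of 0.31. Both chromosomes held members called either way under both normalizations.

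Probes were also grouped by their place in the transcript. Core histone probes (H2A, H2B, H3 and H4) that start 500 or more bases into the listed transcript numbered 10, of which 1 rose and 6 fell, with a median of -0.34. The 34 that start earlier had 18 up and 10 down and a median of 0.18, beside 25.8% up and 35.8% down over all probes. With median centring the later probes were 3 up and 3 down (median 0.0049) and the earlier ones 29 up and 2 down (median 0.72), beside 61.3% and 17.7% of all probes. With the processed signals they were 2 up and 6 down (median -0.28) and 18 up and 5 down (median 0.27). The later median was thus below that of all probes, and the earlier one above it, under each of these normalizations. The border was set after the values were seen, and no test was made. The alike H2A probes of clustered genes, which all rose, and the 3 alike H4 probes that rose are among the earlier ones. They share sequence, and this grouping was not counted with 1 probe per alike group. The stem-loop letters of the 5 probes begin at bases 463 to 495 of their transcripts. Where the stem-loop lies in the transcripts of the later probes was not looked up. The later probes include that of the pseudogene Hist2h3c2-ps, whose ESlncRNA channel was not well above background. The 5 stem-loop probes themselves gave -1.56 for Hist2h2aa1, -0.36 for Hist1h3g, 0.04 for Hist1h3a, 0.19 for Hist2h2bb and 0.22 for Hist1h3i. Most of the Hist2h2aa1 probe lies past the letters, unlike the others. Hist3h2ba was the later probe that rose. The listed transcripts differ in their starts, so positions are only near to each other in meaning.

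**Figure D5:**
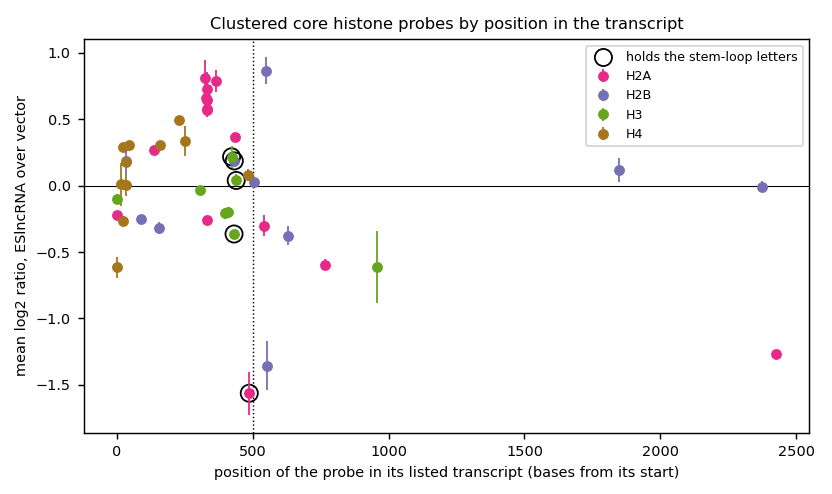
Mean log2 ratio ± SD (n = 2 arrays) of the 44 tested clustered core histone probes against the start of the probe in its listed transcript, in bases. Rings mark the 5 probes with the stem-loop letters and the dotted line is at 500 bases. Left of the line values spread on both sides of 0 with the alike H2A probes on top; right of it most lie below 0.

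Some clustered genes are reported to make polyadenylated transcripts too. Of 5 such genes, each tested, 1 rose, 3 fell and 1 was not called, with a median of -0.30, beside 26.3% of genes up and 36.8% down. With median centring 3 were higher and 0 lower (median 0.25), and the median was -0.11 with the processed signals, so no direction of the list holds. Hist4h4 rose (0.31 ± 0.0064, limma adjusted p = 0.00177), Hist3h2a, Hist1h2bc and Hist1h1c fell as given above, and Hist2h2be gave 0.06 and 0.18 (limma adjusted p = 0.0977). Counted by gene, with the brightest probe of each, 19 of 45 clustered genes rose and 15 fell, and 4 of 14 variant genes rose and 7 fell.

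The machinery that makes and handles histone transcripts showed small differences. Of 16 tested genes for synthesis and 3′ processing of these transcripts 6 rose and 3 fell, with a median of 0.03, beside 26.3% of genes up and 36.8% down. The 4 with the smallest p were Cpsf2 (0.39 ± 0.050, limma adjusted p = 0.000711), a part of the cleavage complex, Ncbp2 (-0.29 ± 0.076, limma adjusted p = 0.00336) and Ncbp1 (0.25 ± 0.028, limma adjusted p = 0.00469), the cap-binding pair, and Hinfp (-0.22 ± 0.0057, limma adjusted p = 0.00754), a regulator of H4 genes. Of 10 genes for decay 2 rose and 2 fell. Eri1, the exonuclease that trims the stem-loop end, rose by 0.33 (SD 0.050; limma adjusted p = 0.00150), and Exosc10 rose by 0.17 (SD 0.038; limma adjusted p = 0.0220). Zcchc11 fell by 0.27 (SD 0.079; limma adjusted p = 0.00500) and Xrn1 by 0.23 (SD 0.089; limma adjusted p = 0.0103).

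Of 28 chaperone and deposition genes 2 rose and 5 fell, a smaller share in each direction than the 26.3% and 36.8% of all genes. Rbbp4, a histone-binding subunit of several chromatin complexes, fell by 0.64 (SD 0.014; limma adjusted p = 5.68e-05), and Nasp, a chaperone of H3 and H4, rose by 0.37 (SD 0.10; limma adjusted p = 0.00158). Znhit1 and Ep400, parts of complexes that place H2A.Z, fell by 0.30 (SD 0.077; limma adjusted p = 0.00286) and 0.25 (SD 0.092; limma adjusted p = 0.00806). With median centring all 28 were called higher, 15 of the 16 processing genes and 9 of the 10 decay genes too, beside 62.9% of genes up and 18.3% down. With the processed signals the chaperone list had 6 up and 1 down, beside 34.3% and 23.7% of genes.

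Clustered histone transcripts accumulate in S phase, so other genes of that phase were listed beside them. Of 26 tested 15 rose and 4 fell, with a median of 0.16, beside 26.3% of genes up and 36.8% down. Ccne1, the cyclin that starts S phase, rose by 0.93 (SD 0.034; limma adjusted p = 1.04e-05), the nucleotide reductase subunit Rrm2 by 0.52 (SD 0.086; limma adjusted p = 0.000260) and the cyclin Ccna2 by 0.44 (SD 0.079; limma adjusted p = 0.000529). Cdc45, a part of the replicative helicase, fell by 0.54 (SD 0.15; limma adjusted p = 0.000531). With median centring 25 of the 26 were higher and 0 lower, beside 62.9% and 18.3% of genes, and with the processed signals 13 and 1, beside 34.3% and 23.7%. With the channels taken as separate samples, or with no offset in the background correction, 8 were higher.

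Markers of cell types also differed between ESlncRNA and vector RNA. In bulk RNA fewer cells of a type and less RNA per cell cannot be told apart. The counts below stand beside 26.3% of all genes up and 36.8% down after loess. Of 13 erythroid markers tested 10 rose and 0 fell, with a median of 0.66, and their summed intensity on the log2 scale was 19.03 and 18.78 in vector RNA and 19.62 and 19.42 in ESlncRNA RNA. The adult globin gene Hba-a2 rose by 1.02 (SD 0.11; limma adjusted p = 1.44e-05) and Hba-a1 by 0.43, while Hbb-b1 gave 0.04 and was not called. With the processed signals Hba-a2, Hba-a1 and Hbb-b1 gave 0.65, 0.21 and -0.20. Granulocyte markers fell in 11 of 11, with a median of -4.38 and sums of 20.15 and 20.30 against 16.08 and 16.34. Macrophage markers fell in 11 of 11 (median -2.24, sums 14.72 and 14.75 against 12.57 and 12.66). Megakaryocyte markers fell in 8 of 8 (median -1.57, sums 16.19 and 16.09 against 14.37 and 14.29). Of 9 stem and early progenitor markers 8 fell and 1 rose (median -2.51, sums 15.45 and 15.45 against 14.29 and 14.28). Of 11 hepatocyte and stroma markers 9 fell (median -1.11, sums 14.13 and 14.05 against 12.13 and 12.14), and of 3 tested lymphocyte markers 2 fell and 1 rose (median -0.89, sums 11.25 and 11.19 against 9.37 and 9.28). The granulocyte gene S100a8, for example, fell by 5.43 (SD 0.028; limma adjusted p = 5.55e-08). With median centring the granulocyte, macrophage and megakaryocyte medians were -3.39, -2.03 and -1.04. In each of these lists 1 marker was then above 0: Csf3r (0.57), Itgam (0.20) and Gp5 (0.23). With the processed signals these markers were below 0 (-0.17, -0.31 and -0.18). The part of these cell types in the lower values of H2afy, H2afv, H2afx, Hist2h2aa1, Hist1h2bg and Hist1h2ac, or in the higher ones of the H2A probes, was not tested.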

How the data were processed

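RNA of ESlncRNA-transduced (Cy5) and vector-transduced (Cy3) cells was hybridised to 2 arrays on 1 slide. Per the file headers, the deposited spot intensities and processed signals were made with Agilent's software Feature Extraction 10.1.1.1; that software's log10 ratios, also deposited per the file headers, were used to check direction. The deposited log2 values of the series table matched a loess fit with no background correction (r = 0.99996 on both arrays). Depth does not apply to arrays, and their number limits the precision.

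From the mean and background intensities, log2 ratios were computed with limma 3.58.1 in R 4.3.3: normexp (offset 50), loess within each array, control and outlier spots at weight 0, spots of a probe averaged. Levels per channel were scaled between arrays (Aquantile). The fit had 1 residual and 5.25 prior degrees of freedom, with limma's moderated test and Benjamini-Hochberg adjustment over 26802 probes at 0.05. Where a channel was well above background on neither array, the fold is a bound against the lowest signal well above background. The steps of the fit were run on simulated data in which few probes changed. Far more were called here, so that run cannot show how many calls here are false. No tested column lacked a sample.

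The members and gene lists were chosen with earlier results of these data known. The genes named with ratio, SD and adjusted p, or for genes not called the ratios and adjusted p, are every tested variant gene, and per clustered class the 4 genes with the smallest p and the highest and lowest, and per pathway list the 4 with the smallest p. Others are named by role. The interval taken for ESlncRNA was matched by its neighbouring genes. Alternatives were median centring, the processed signals, normexp offset 0, other background filters, the deposited log2 values, the fit without the array as a block, leaving out each replicate, the mean of a gene's probes, and 1 probe per alike group.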

Additional observations from a re-analysis of the deposited data

How the results depend on the processing

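Median centring gave 37 clustered probes up, 5 down and a median of 0.48, and 12 variant probes up with a median of 0.27. The processed signals gave 11 clustered probes down and medians of 0.24 (clustered) and -0.066 (variant). With 1 probe per alike group, chosen after the data were seen, 12 clustered probes rose. With no filter on background the variant median was -0.10. Median centring turned the sign of 19 of 72 probes. Of these, 18 were called under at least 1 of the settings compared: H2afy2 to 0.27, H2afz at 897 to 0.88, H3f3a to 0.76 and 0.43, H3f3b to 0.60 and 0.81, Hist1h1b to 0.79, Hist1h1c to 0.25, Hist1h2ak at 0 to 0.78, Hist1h2ba to 0.37, Hist1h2bc to 0.13, Hist1h2bm to 0.45, Hist1h3c to 0.42, Hist1h3d to 0.90, Hist1h3f to 0.20, Hist1h3g to 0.14, Hist1h4i to 0.32 and Hist2h3c1 to 0.48; the other was Hist1h2be at 0.17. The processed signals turned 6 signs, 1 of them of a called probe, Hist1h3f, to 0.080. The cause was not tested.

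The 3 probes of H2afy kept their call under each normalization, filter and offset tried. Of the 55 calls after loess, 12 were lost with the processed signals, 7 with median centring (9 more were called in the opposite direction), 6 with offset 0 and 4 with the deposited log2 values. Without the replicate block (channels as separate samples after Aquantile, so that the pairing of channels on an array is dropped), 17 clustered probes rose and 15 fell, and 7 calls were lost. Leaving out 1 replicate leaves no residual degrees of freedom and gives values with no test: the clustered median was 0.0034 without replicate 1 and 0.06 without replicate 2, and the variant median -0.22 and -0.14; no called probe changed sign. With 2 arrays and no dye swap, dye and treatment cannot be told apart. Where a channel was well above background on neither array, the fold is only a bound. Other dim probes have plain ratios.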
